A study of Mus musculus with 10 samples.

Results

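Dnmt1, Dnmt3a, Dnmt3b, Tet1, Tet2 and Tet3 encode the enzymes that write and oxidise DNA methylation, and they were followed across 5 sorted groups of naive mouse T cells. They were chosen by symbol in the deposited count table, where each had 1 row, so that 6 of 34573 genes are described, and all 6 were among the 12193 genes with enough counts to test. The groups were CD4hi, DP (positive for CD4 and CD8) and CD4lo cells of mice with the genotype OB11/OB11, and CD8 and CD4 cells of wild-type mice (WT CD8 and WT CD4). All cells came from the spleen of mice aged 6 weeks and were sorted as TCRb+ cells without CD25 or CD44 and with high Cd62l, with 2 RNA sequencing libraries in each group. By its title the series concerns how ThPOK, a zinc finger factor encoded by Zbtb7b that keeps CD4 T cells in their lineage, acts on its own gene. What the OB11 allele alters is not given in the labels. Nor is it said that the 2 libraries of a group are from different mice. A p-value here therefore rests on the spread between these libraries, moderated by that of other genes, and not on a known spread between mice.

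DNA methylation is the addition of a methyl group to cytosine, mostly where a G follows. DNMT1 copies the marks onto new strands when DNA is replicated, guided by UHRF1, while DNMT3A and DNMT3B place marks on unmethylated DNA. The TET enzymes oxidise methylated cytosine, which leads to its loss through base excision repair or through dilution as cells divide. In mouse T cells, methylation of the Cd4 gene is part of the stable silencing of Cd4 in CD8 cells, and TET activity has been tied to stable Cd4 expression in CD4 cells. The files hold RNA counts and say nothing of the methylation itself.

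Total counts per library ran from 5055956 to 7417789. The libraries carried the RNA of T cells, with a summed level of 10 T cell markers between 2690 and 3290 CPM (counts scaled to a common library size by the TMM method). Zbtb7b stood at 27.8 ± 0.148 CPM in CD4hi, 8.12 ± 1.5 in DP, 9.0 ± 0.542 in CD4lo, 2.84 ± 0.17 in WT CD8 and 151 ± 9.31 in WT CD4 cells (SD, n = 2 each, as for all means below). Cd4 RNA followed the gates, with 483 ± 52.5 CPM in CD4hi, 242 ± 9.73 in DP, 34.0 ± 1.14 in CD4lo, 2.89 ± 1.62 in WT CD8 and 641 ± 41.8 in WT CD4 cells. Cd8a averaged 604 ± 3.43 CPM in WT CD8 and 258 ± 2.82 in DP. It was low in CD4lo (2.75 ± 0.285), CD4hi (1.31 ± 0.42) and WT CD4 cells (2.16 ± 2.05). Cd8b1 averaged 520 ± 5.6 CPM in WT CD8, 278 ± 4.08 in DP, 60.5 ± 6.68 in CD4lo, 22.4 ± 3.95 in CD4hi and 11 ± 1.02 in WT CD4 cells. The titles of the CD4lo and WT CD4 libraries carry a mark L that the others lack. CD4lo against WT CD4, DP against CD4hi, CD4hi against WT CD8 and DP against WT CD8 set libraries with the same title mark against each other; for the remaining 6 the effect of the mark cannot be told apart from that of the group. The 4 comparisons against WT CD4 share the WT CD4 libraries, so their values are set side by side and not counted as separate evidence. Over all genes, the 2 WT CD4 libraries also differed from each other more than those of any other group.

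Scaled to the length of their exons, Dnmt1 and Tet3 stood far above the other 4 genes in every library. Dnmt1 lay between 28.1 and 32.5 CPM per kilobase of exon over the 10 libraries, and Tet3 between 13.5 and 17.3. Dnmt3a followed at 5.0 to 7.09 and Tet2 at 4.34 to 6.28 CPM per kilobase, ranges that overlap. Tet1 lay at 1.29 to 2.21 and Dnmt3b at 1.09 to 1.68 CPM per kilobase, and these 2 ranges overlap too. Of the summed length-scaled level of the 6 genes, Dnmt1 made up a median of 50.6%, Tet3 25.1%, Dnmt3a 9.88%, Tet2 9.23%, Tet1 2.77% and Dnmt3b 2.04%. The sum of all 6 lay between 56.7 CPM per kilobase in CD4lo 2 and 64.0 in DP 1, with 36.1 to 39.9 for the 3 DNMT genes and 20 to 24.3 for the 3 TET genes. The lengths are those of all annotated exons joined, so isoforms that use fewer exons would have higher values than these.

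**Figure D1:**
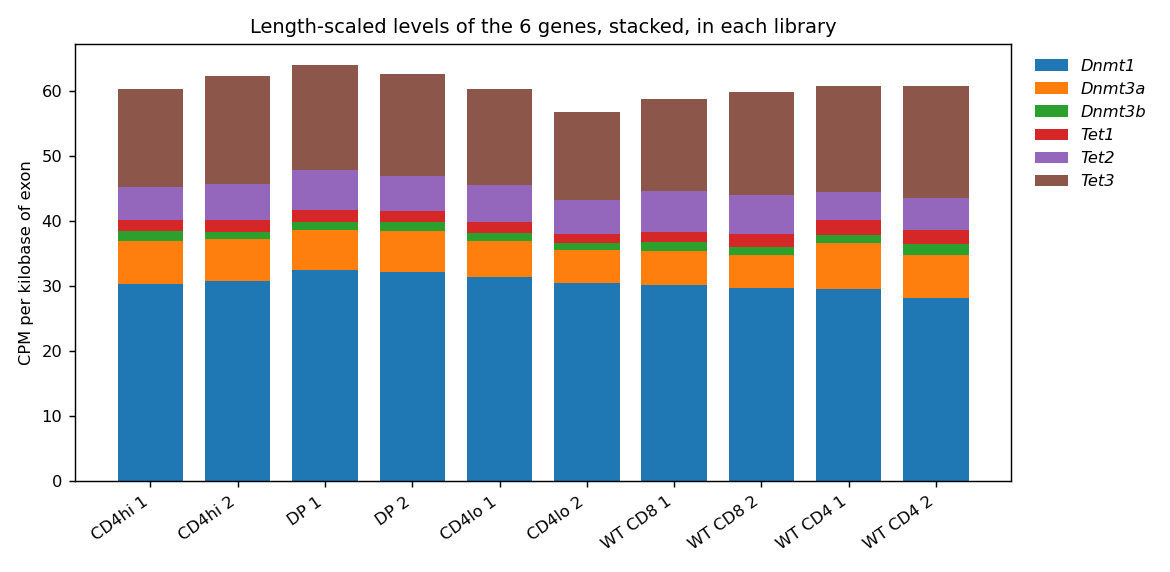
Length-scaled levels (CPM per kilobase of exon, vertical axis) of the 6 genes, stacked for each of the 10 libraries (horizontal axis). Dnmt1 and Tet3 fill most of each column, whose height runs from 56.7 to 64.0.

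Across the 5 groups, Dnmt3a and Tet2 were called different and the other 4 genes were not. An edgeR quasi-likelihood test of any difference among the groups, adjusted by the Benjamini-Hochberg method over all genes tested, called Dnmt3a (adjusted p = 0.00265) and Tet2 (adjusted p = 0.029), so 2 of 6, where 25.8% of all tested genes were called. The highest group mean was 1.34 times the lowest for both. Tet1 had the widest range of group means, 1.46 times, and was not called (adjusted p = 0.0878). Dnmt1 (1.12 times, adjusted p = 0.388), Tet3 (1.19 times, adjusted p = 0.167) and Dnmt3b (1.21 times, adjusted p = 0.912) were not called. The Tet2 call was lost without WT CD8 1 (adjusted p = 0.095), without WT CD8 2 (0.0804), without WT CD4 1 (0.118) and with DESeq2 (0.0746), and Tet1 was called without CD4lo 1 (0.0397). Of the 60 differences between 2 groups, 6 genes in each of 10 pairs, 9 were called, and no member differed by the test between groups that stand next to each other in the order of its levels.

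**Figure D2:**
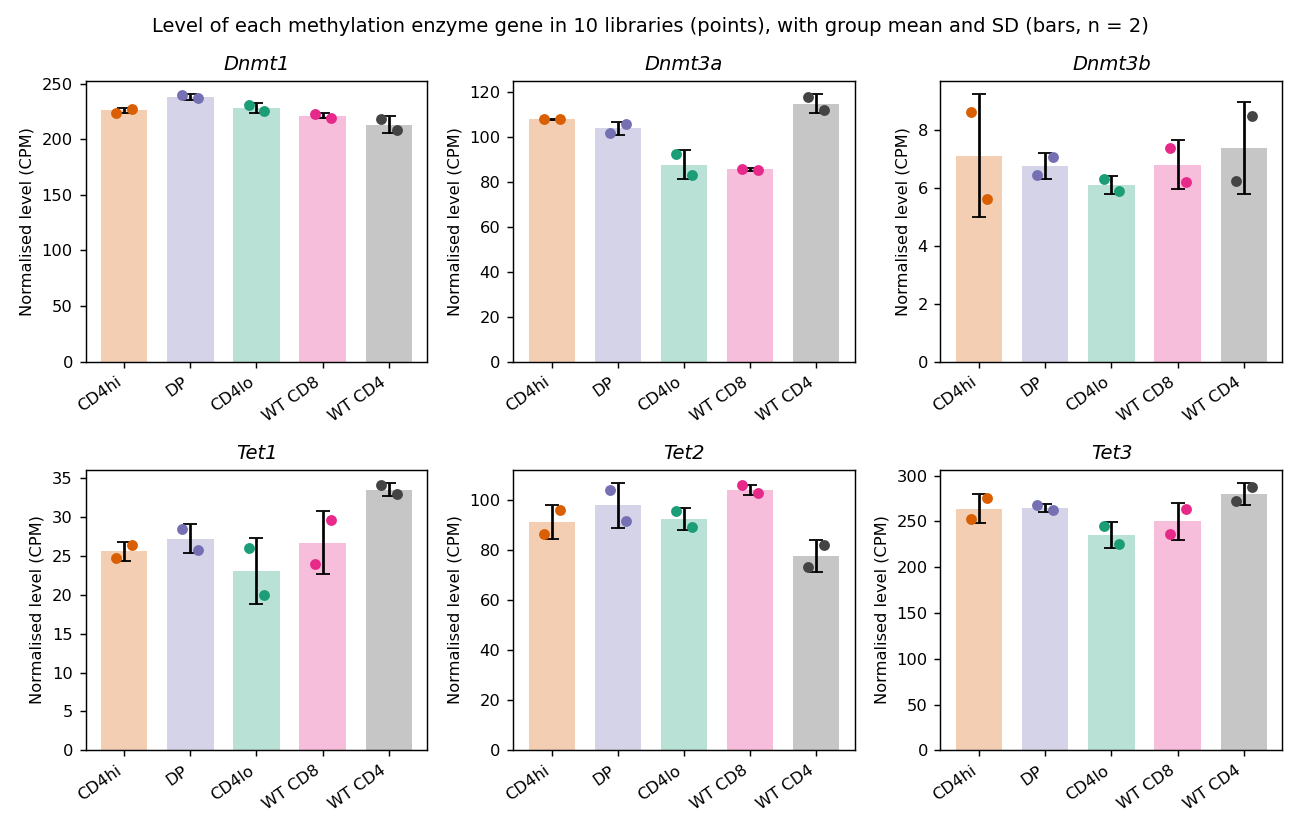
Normalised level (CPM, vertical axis, from 0) of each gene by group (horizontal axis). Points are libraries, columns group means and bars the SD (n = 2). Dnmt3a is lowest in CD4lo and WT CD8, and Tet2 is highest in WT CD8 and lowest in WT CD4.

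The start regions of the 2 called genes are shown with their CG pairs, the substrate of these enzymes. RefSeq start windows, 250 bases before to 50 after the start on GRCm38.p6, were matched for all 6 genes, with 10 windows in all. The Tet2 window (chr3:133544341-133544640, minus strand) holds 57 CG pairs, more than 99.8% of 32851 windows, where the median is 7. The first Dnmt3a window (chr12:3806730-3807029, plus strand) holds 46, more than 98.4% of windows, and the window (chr12:3891494-3891793, plus strand) at the start of the shorter transcripts holds 18, more than 70.3%. The sequences are written on the strand of the gene with each CG in capitals.
Tet2: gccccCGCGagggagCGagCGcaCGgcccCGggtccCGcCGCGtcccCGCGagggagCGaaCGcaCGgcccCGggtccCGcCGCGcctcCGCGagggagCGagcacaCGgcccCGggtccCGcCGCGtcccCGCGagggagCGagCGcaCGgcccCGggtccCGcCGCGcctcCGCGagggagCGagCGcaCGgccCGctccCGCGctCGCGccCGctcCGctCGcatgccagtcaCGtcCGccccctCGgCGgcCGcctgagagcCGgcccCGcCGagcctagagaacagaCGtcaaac
Dnmt3a, first start: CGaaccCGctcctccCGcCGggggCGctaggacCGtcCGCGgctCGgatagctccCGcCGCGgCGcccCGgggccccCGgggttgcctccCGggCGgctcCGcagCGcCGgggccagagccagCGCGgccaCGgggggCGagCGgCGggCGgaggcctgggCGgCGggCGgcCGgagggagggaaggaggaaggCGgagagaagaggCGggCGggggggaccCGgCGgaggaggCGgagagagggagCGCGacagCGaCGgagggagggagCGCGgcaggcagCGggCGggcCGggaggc
Dnmt3a, start of shorter transcripts: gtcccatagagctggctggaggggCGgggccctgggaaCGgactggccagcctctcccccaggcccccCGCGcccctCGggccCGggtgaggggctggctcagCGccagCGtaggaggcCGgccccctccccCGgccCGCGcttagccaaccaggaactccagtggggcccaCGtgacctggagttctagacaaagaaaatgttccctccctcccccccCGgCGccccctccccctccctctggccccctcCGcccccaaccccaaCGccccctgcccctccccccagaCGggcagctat
The other windows hold 33, 12 and 2 CG pairs at Dnmt1, more than 91.4%, 60.4% and 14.1% of windows. The other Dnmt3a start holds 47 (98.6%), Dnmt3b 30 (88.3%), Tet3 22 (76.9%) and Tet1 17 (68.6%). Many CG pairs are thus not particular to the 2 called genes. The GC box GGGCGG, which overlaps a CG, was found on either strand in 8 of the 10 windows and in 35.7% of all windows. The Dnmt3a windows with 46 and 47 CG pairs overlap, so letters in their shared stretch are counted in both. The RUNX hexamer TGTGGT was found in 0 of the 10 windows and in 16.8% of all windows, searched on both strands. A match or its absence describes these letters only, and the counts here do not say which start was used.

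Dnmt1, the maintenance enzyme, was not called different between any 2 groups. On mm10 it lies on chromosome 9 (20907209 to 20959888, minus strand). Its levels were 224 and 227 CPM in CD4hi, 240 and 237 in DP, 231 and 225 in CD4lo, 223 and 219 in WT CD8, and 218 and 208 CPM in WT CD4 cells. The DP libraries were the highest and the WT CD4 libraries the lowest, and the whole range from lowest to highest library was 1.16 times. None of the 10 differences was called by edgeR or by DESeq2, 1 had an unadjusted p under 0.05, and the 95% intervals of all 10 lay between -0.21 and 0.31 on the log2 scale. The largest was DP over WT CD4 (0.16 ± 0.07 SE, 95% interval 0.02 to 0.31, adjusted p = 0.117).

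Several genes that work with DNMT1 were called higher in CD4hi and DP than in WT CD4 cells. Uhrf1, which brings DNMT1 to hemimethylated sites, had 15.2 and 20.3 CPM in CD4hi, 18.2 and 23.9 in DP, 9.52 and 12.7 in CD4lo, 9.51 and 10.6 in WT CD8, and 7.11 and 5.42 CPM in WT CD4 cells. Both CD4hi and both DP libraries lay above all others, and Uhrf1 was higher than in WT CD4 cells by 1.52 ± 0.24 (log2 ± SE, adjusted p = 0.000385) in CD4hi and 1.76 ± 0.23 (adjusted p = 6.56e-05) in DP. In CD4lo it was higher by 0.82 ± 0.25 (adjusted p = 0.0366), a call lost without CD4lo 2, WT CD8 1, WT CD8 2 or WT CD4 2, in the fit of only the 4 libraries compared and with DESeq2 (adjusted p up to 0.216 over the alternatives). Hells, a chromatin remodeller needed for normal methylation, was higher than in WT CD4 cells by 0.73 ± 0.16 (adjusted p = 0.00556) in CD4hi and by 0.89 ± 0.16 (adjusted p = 0.000924) in DP. Cdca7, its partner, was lower in CD4lo than in CD4hi cells, at 8.0 ± 0.243 against 16.8 ± 0.0377 CPM (-1.06 ± 0.19, adjusted p = 0.00278). Of the 7 tested genes among 9 listed cofactors (Dnmt3l and Zfp57 had too few counts), 4 were higher and 0 lower in CD4hi than in WT CD4 cells, where 10.4% of all genes were higher and 6.43% lower. In DP 3 were higher and 0 lower than in WT CD4, where 11.1% of all genes were higher and 8.06% lower. In CD4lo 1 was higher and 0 lower (8.82% and 7.02% of all genes), and in WT CD8 1 was higher and 0 lower (11.1% and 10.6%). With 1 library left out, the number higher was 2 to 4 for CD4hi, 2 to 3 for DP, 0 to 1 for CD4lo and 0 to 1 for WT CD8. The CD4hi count was 2 without WT CD4 1, where Cdca7 (adjusted p = 0.104) and Pcna (adjusted p = 0.0614) were not called. Pcna, the sliding clamp of DNA replication, was called against WT CD4 in DP (0.27, adjusted p = 0.0453) and WT CD8 (0.26, adjusted p = 0.0498), in each case in only 6 of the 17 alternatives. The median log2 difference of the list from WT CD4 was 0.39 for CD4hi, 0.27 for DP, 0.18 for CD4lo and 0.12 for WT CD8, beside 0.00, -0.01, -0.02 and -0.03 over all genes. Uhrf1, Hells, Pcna and Cdca7 are known to be high in dividing cells.

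Cell cycle genes were highest in the same groups as Uhrf1. Mki67, the proliferation antigen, averaged 109 ± 9.56 CPM in CD4hi, 116 ± 5.11 in DP, 61.1 ± 9.93 in CD4lo, 33.4 ± 2.96 in WT CD8 and 26.3 ± 1.74 in WT CD4 cells. The difference from WT CD4 was 2.04 ± 0.12 in CD4hi (adjusted p = 2.35e-08), 2.14 ± 0.12 in DP (1.01e-08) and 1.22 ± 0.12 in CD4lo (5.24e-06). Of 19 tested genes among 20 listed cell cycle genes, 12 were higher and 0 lower than in WT CD4 in CD4hi, where 10.4% and 6.43% of all genes were. For DP they were 12 and 0 (11.1% and 8.06% of all genes), for CD4lo 10 and 1 (8.82% and 7.02%) and for WT CD8 6 and 2 (11.1% and 10.6%). With 1 library left out, the number higher was 9 to 12 for CD4hi, 10 to 12 for DP, 7 to 10 for CD4lo and 4 to 8 for WT CD8. The gene lower in CD4lo was Stmn1, a regulator of microtubules (-0.67, adjusted p = 0.0437), called in 5 of the 17 alternatives. The summed level of the 20 genes was 694 to 708 CPM in CD4hi, 699 to 720 in DP, 532 to 557 in CD4lo, 492 to 502 in WT CD8 and 381 to 410 in WT CD4 cells. Dnmt1 stood 0.09 ± 0.07 above WT CD4 in CD4hi and 0.16 ± 0.07 in DP, neither called. In bulk libraries a few dividing cells with much RNA of a gene and many cells with little of it cannot be told apart, and the part of cell division in the cofactor values was not tested.

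**Figure D3:**
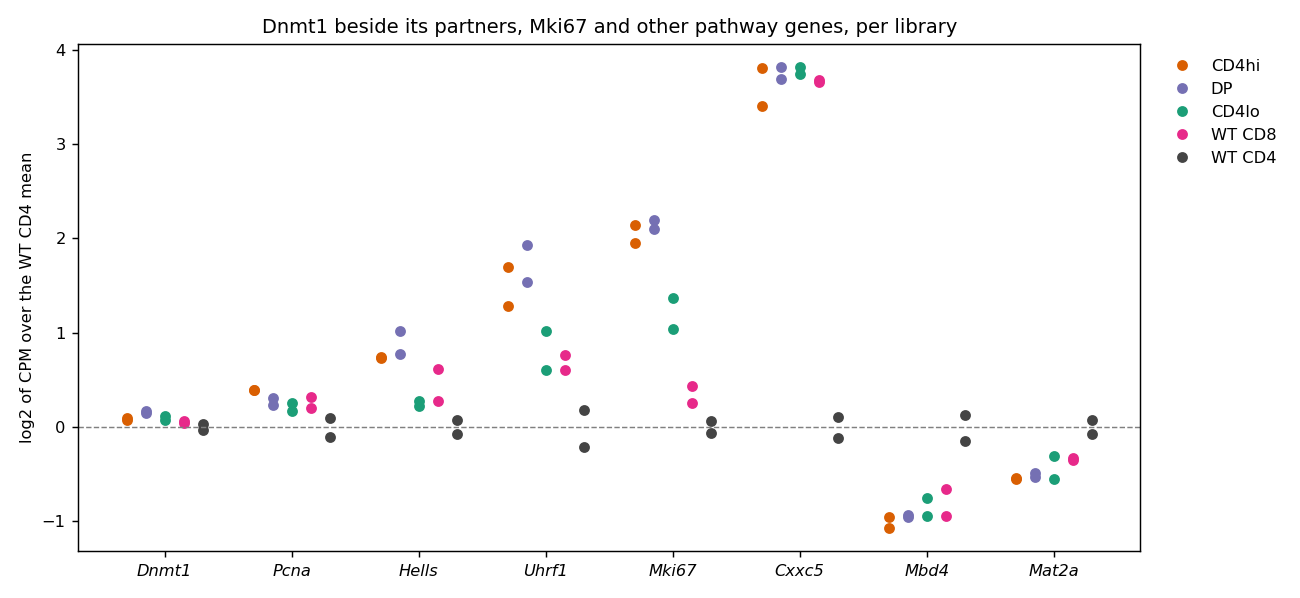
Level of each library relative to the mean of the WT CD4 libraries (log2, vertical axis) for Dnmt1, genes of its pathway and Mki67 (horizontal axis). Each point is 1 library. Uhrf1 and Mki67 are highest in CD4hi and DP, and Cxxc5, Mbd4 and Mat2a set WT CD4 apart from all other groups.

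Dnmt3a, the main de novo enzyme of T cells, was lower in the groups with the least Cd4 RNA, WT CD8 and CD4lo. It lies on chromosome 12 (3806007 to 3914443, plus strand), and 133 of its 16642 exon bases are shared with the antisense gene Dnmt3aos, 0.799% of the length. Its levels were 108 and 108 CPM in CD4hi, 102 and 106 in DP, 92.5 and 83.2 in CD4lo, 86.1 and 85.3 in WT CD8, and 118 and 112 CPM in WT CD4 cells. All CD4lo and WT CD8 libraries lay below all others, and the CD4lo and WT CD8 libraries overlapped. Relative to WT CD4 cells it fell by 0.42 ± 0.08 on the log2 scale in WT CD8 (95% interval -0.59 to -0.25, adjusted p = 0.00129), to 74.6% of the WT CD4 level. In CD4lo it fell by 0.38 ± 0.08 (95% interval -0.55 to -0.22, adjusted p = 0.00354), to 76.6%. These 2 differences were called under each of the 17 alternative settings. Between CD4lo and WT CD8 cells the difference was 0.04 with a 95% interval of -0.13 to 0.21 (adjusted p = 0.885). In CD4hi and DP cells Dnmt3a differed from WT CD4 by -0.09 (95% interval -0.26 to 0.08) and -0.14 (-0.31 to 0.02), neither called.

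Within the OB11/OB11 mice, Dnmt3a was lower in CD4lo than in CD4hi cells, at 87.8 ± 6.55 against 108 ± 0.362 CPM (-0.29 ± 0.08, adjusted p = 0.0389). The difference of CD4lo from DP, -0.24 ± 0.08, was not called (adjusted p = 0.0991). Against WT CD8 it was higher by 0.33 ± 0.08 in CD4hi (adjusted p = 0.0148) and by 0.28 ± 0.08 in DP cells (adjusted p = 0.0488). With any 1 library left out the differences kept their sign, at -0.37 to -0.22 for CD4lo against CD4hi, 0.31 to 0.34 for CD4hi against WT CD8 and 0.25 to 0.31 for DP against WT CD8. The calls were lost in several of these fits, some of them without a library outside the comparison. CD4lo against CD4hi was not called without CD4hi 1 (adjusted p = 0.149), CD4hi 2 (0.15), DP 1 (0.0598), DP 2 (0.058), CD4lo 2 (0.247), WT CD8 1 (0.0623) or WT CD8 2 (0.0704). CD4hi against WT CD8 was not called without CD4hi 1 (0.0716), CD4hi 2 (0.0815), WT CD8 1 (0.0838) or WT CD8 2 (0.137). DP against WT CD8 was not called without CD4hi 1 (0.0629), CD4hi 2 (0.065), DP 1 (0.136), DP 2 (0.269), WT CD8 1 (0.192) or WT CD8 2 (0.288), and DESeq2 called none of the 3.

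Dnmt3b, the second de novo enzyme, was close to the limit of these libraries. It lies on chromosome 2 (153649450 to 153687730, plus strand) and had 30 to 61 counts per library. Its levels were 8.59 and 5.59 CPM in CD4hi, 6.43 and 7.06 in DP, 6.3 and 5.87 in CD4lo, 7.37 and 6.18 in WT CD8, and 6.22 and 8.48 CPM in WT CD4 cells. The libraries of 1 group spread as widely as those of different groups, and none of the 10 differences was called by edgeR or DESeq2 (0 with an unadjusted p under 0.05). The 95% intervals reached from -0.86 to 0.66 on the log2 scale, so a change of the size seen for Dnmt3a was not detectable at this depth.

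Tet2 ran the other way from Dnmt3a between the wild-type groups, higher in WT CD8 than in WT CD4 cells. It lies on chromosome 3 (133463679 to 133545139, minus strand), with 43 exon bases, 0.255%, shared with the antisense gene Gm42567. Its levels were 86.4 and 95.9 CPM in CD4hi, 104 and 91.6 in DP, 95.7 and 89.3 in CD4lo, 106 and 103 in WT CD8, and 73.2 and 82.2 CPM in WT CD4 cells. Both WT CD4 libraries lay below all 8 others, and the 3 OB11/OB11 groups overlapped one another. Tet2 was higher than in WT CD4 cells by 0.42 ± 0.09 in WT CD8 (95% interval 0.22 to 0.62, adjusted p = 0.00438), 134% of the WT CD4 level, and this was called under each of the 17 alternatives. In DP it was higher by 0.33 ± 0.09 (95% interval 0.13 to 0.53, adjusted p = 0.0223), a call lost without DP 1 (0.24, adjusted p = 0.199), without WT CD4 1 (0.25, adjusted p = 0.12) and with DESeq2 (adjusted p = 0.076). In CD4hi and CD4lo the values were 0.23 (95% interval 0.03 to 0.43, adjusted p = 0.119) and 0.25 (0.05 to 0.45, adjusted p = 0.0873), not called, although CD4lo was called without WT CD4 2 (0.35, adjusted p = 0.0488).

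Set side by side in each library, the count of Dnmt3a over that of Tet2 was 1.24 and 1.13 in CD4hi, 0.977 and 1.16 in DP, 0.966 and 0.932 in CD4lo, 0.813 and 0.829 in WT CD8, and 1.61 and 1.36 in WT CD4 cells. WT CD8 libraries were the lowest and WT CD4 libraries the highest, with the 3 OB11/OB11 groups between them. This ratio was chosen after the values of both genes were seen and is given without a test; the ratio of exon lengths is close to 1, so it is nearly a ratio of length-scaled levels.

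**Figure D4:**
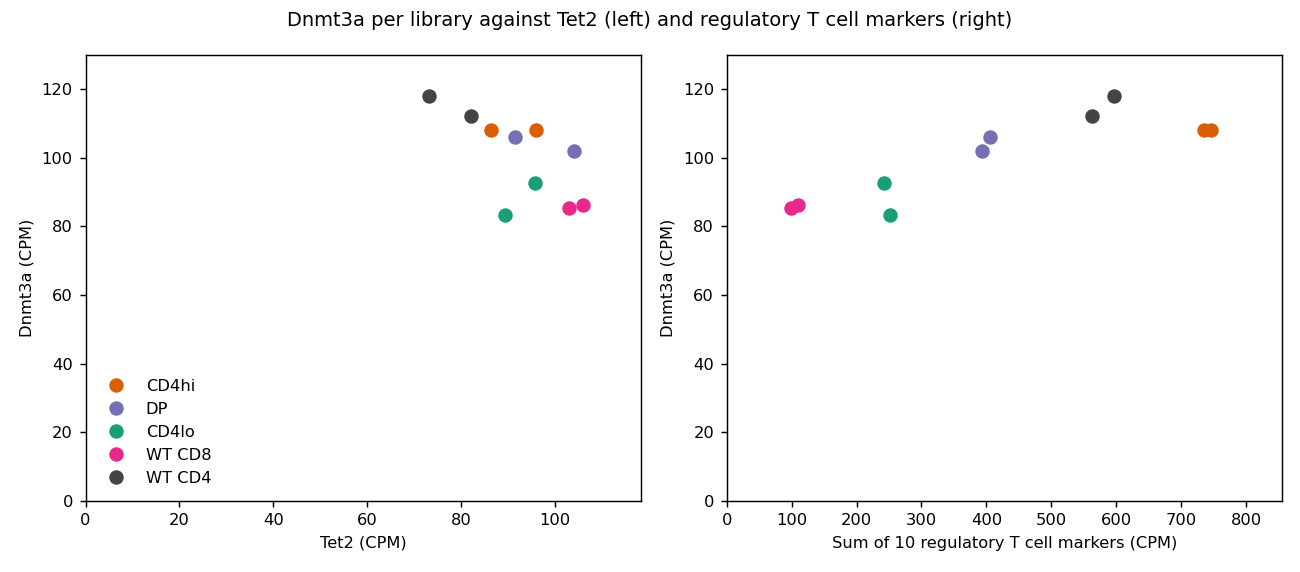
Dnmt3a (CPM, vertical axis) in each library against Tet2 (left, CPM) and against the summed level of 10 regulatory T cell markers (right, CPM). WT CD4 libraries have the most Dnmt3a and the least Tet2; WT CD8 and CD4lo libraries have the least Dnmt3a and the lowest marker sums, 99.7 to 110 and 243 to 252.

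Tet1 was highest in WT CD4 cells, and Tet3 was lowest in CD4lo cells. Tet1 lies on chromosome 10 (62804570 to 62908996, minus strand) and Tet3 on chromosome 6 (83362373 to 83459084, minus strand); both oxidise methylated cytosine like Tet2. Tet1 had 24.7 and 26.4 CPM in CD4hi, 28.5 and 25.8 in DP, 26 and 20 in CD4lo, 23.9 and 29.6 in WT CD8, and 34.1 and 32.9 CPM in WT CD4 cells. Both WT CD4 libraries lay above all 8 others, while the other 4 groups overlapped one another. Tet1 was lower than in WT CD4 cells by -0.53 ± 0.14 in CD4lo (95% interval -0.83 to -0.22, adjusted p = 0.0218), 69.5% of the WT CD4 level. In CD4hi the difference was -0.39 ± 0.14 (95% interval -0.70 to -0.08, adjusted p = 0.0799), in DP -0.30 ± 0.14 (adjusted p = 0.15) and in WT CD8 -0.31 ± 0.14 (adjusted p = 0.132), none of them called. The CD4lo call was lost without CD4lo 2 (-0.37), without WT CD4 1 (-0.50) and without WT CD4 2 (-0.55). It was also lost in the fit of only the 4 libraries compared (-0.52, edgeR adjusted p = 0.0667) and with DESeq2 (adjusted p = 0.109).

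Tet3 had 253 and 275 CPM in CD4hi, 268 and 262 in DP, 245 and 225 in CD4lo, 236 and 264 in WT CD8, and 272 and 288 CPM in WT CD4 cells. The CD4lo libraries lay below those of CD4hi, DP and WT CD4 and overlapped those of WT CD8. The difference of CD4lo from WT CD4 was -0.25 ± 0.08 (95% interval -0.43 to -0.08, 83.9% of the WT CD4 level) and lay at the threshold (adjusted p = 0.0487). It was called in 2 of the 17 alternatives: leaving out any library other than CD4hi 1 took the adjusted p above 0.05, from 0.0526 without CD4hi 2 to 0.259 without CD4lo 2. None of the other 9 differences of Tet3 was called.

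Counted by comparison, CD4lo against WT CD4 had 3 of 6 members called, all lower (Dnmt3a, Tet1 and Tet3), where 15.8% of all genes were called. The count was 2 with median-of-ratios size factors, without mitochondrial genes, with no filter and in 7 of the 10 fits with 1 library left out, and it was 1 without CD4lo 2, without WT CD4 1, in the fit of 4 libraries and with DESeq2. Without WT CD4 2 the directions were mixed, with Dnmt3a lower and Tet2 higher (0.35) and neither Tet1 nor Tet3 called. WT CD8 against WT CD4 had 2 of 6 (Dnmt3a lower, Tet2 higher), where 21.7% of all genes were called. DP against WT CD4 had 1 of 6 (Tet2 higher), where 19.1% were. CD4hi against WT CD4 had 0 of 6 called by edgeR or by DESeq2 and 2 with an unadjusted p under 0.05, where 16.8% of all genes were called. The median size of the log2 difference from WT CD4 was 0.09 for the members and 0.24 for all genes in CD4hi. It was 0.15 and 0.26 in DP, 0.27 and 0.25 in CD4lo, and 0.24 and 0.27 in WT CD8. Of the comparisons within OB11/OB11 mice, CD4lo against CD4hi had 1 of 6 called (7.03% of all genes), CD4lo against DP 0 of 6 with either tool and 1 with an unadjusted p under 0.05 (6.19%), and DP against CD4hi 0 of 6 with either tool and 0 with an unadjusted p under 0.05 (1.62%). Against WT CD8, CD4hi had 1 of 6 called (9.92% of all genes), DP 1 of 6 (6.85%) and CD4lo 0 of 6 with either tool and 0 with an unadjusted p under 0.05 (5.49%). With 6 genes a single call is 1 in 6, so these counts cannot be read closely against the shares of all genes, and the values of the single genes carry the result.

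**Figure D5:**
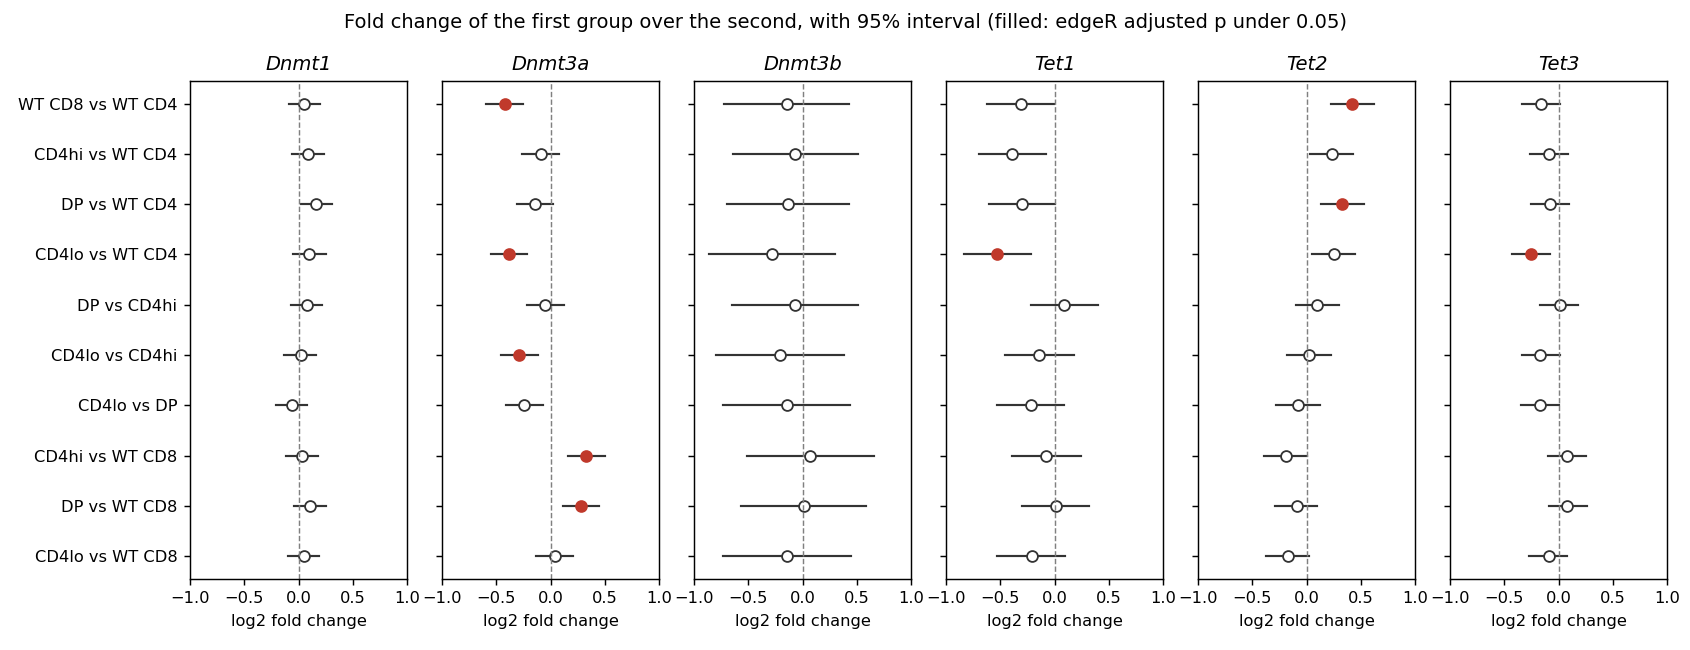
Log2 fold change of the first over the second group (horizontal axis) for each gene in 10 comparisons (rows). Points are edgeR estimates, lines 95% intervals, and filled points have an adjusted p under 0.05. The filled points fall on Dnmt3a, Tet2, Tet1 and Tet3, 9 in all.

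Among genes that act after the TET enzymes or bind beside them, Cxxc5 set WT CD4 apart from every other group. Cxxc5 encodes a CXXC zinc finger protein that binds unmethylated CG pairs and has been described as repressed by ThPOK. It averaged 22.3 ± 4.44 CPM in CD4hi, 24.4 ± 1.59 in DP, 24.9 ± 0.838 in CD4lo, 23.1 ± 0.252 in WT CD8 and 1.81 ± 0.203 CPM in WT CD4 cells. That is 12.3 to 13.7 times the WT CD4 level (log2 3.62 to 3.78, adjusted p of at most 5.96e-08), and between the 4 other groups no difference was called. Gadd45g, a stress gene linked to demethylation, averaged 4.65 ± 1.78 CPM in CD4hi, 4.52 ± 1.59 in DP, 3.04 ± 0.692 in CD4lo, 3.88 ± 0.547 in WT CD8 and 1.18 ± 0.0936 in WT CD4 cells. Its difference from WT CD4 was called in CD4hi (1.96 ± 0.48, edgeR adjusted p = 0.0109), DP (1.92 ± 0.47, edgeR adjusted p = 0.0107) and WT CD8 (1.70 ± 0.49, edgeR adjusted p = 0.0215). The CD4hi call was lost without CD4hi 1 (1.52) and the DP call without DP 1 (1.52). The WT CD8 call was lost without any 1 of the WT CD8 or WT CD4 libraries (1.56 to 1.86). In the fit of only the 4 libraries compared, the CD4hi call (edgeR adjusted p = 0.084) and the WT CD8 call (0.0599) were lost too. DESeq2 did not call the WT CD8 difference (adjusted p = 0.0573). The WT CD4 libraries held only 7 and 8 counts of Gadd45g. Of 10 tested genes among 12 listed for oxidised base removal and TET partners (Neil2 and Cxxc4 had too few counts), those higher than in WT CD4 cells numbered 3 for CD4hi, 3 for DP, 1 for CD4lo and 2 for WT CD8, and 0 were lower. The shares of all genes that were higher were 10.4%, 11.1%, 8.82% and 11.1% in the same order. Gadd45b, related to Gadd45g, was called in CD4hi (1.07, edgeR adjusted p = 0.0212) and DP (1.09, edgeR adjusted p = 0.0159). Its CD4hi call was lost without CD4hi 1 (0.0603), CD4hi 2 (0.109) or WT CD4 2 (0.0905), its DP call without DP 1 (0.0877), DP 2 (0.0606) or WT CD4 2 (0.0786), and both with DESeq2. The count of 3 was thus 1 for CD4hi without CD4hi 1, and 1 for DP without DP 1. The glycosylase gene Tdg, which removes oxidised bases, was not among them.

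Among the methyl-CpG readers and the genes of methyl donor supply, Mbd4 and Mat2a were lower in each of the other 4 groups than in WT CD4 cells. Mbd4, a glycosylase that binds methylated CG pairs, averaged 6.53 ± 0.377 CPM in CD4hi, 6.84 ± 0.0832 in DP, 7.33 ± 0.705 in CD4lo, 7.6 ± 1.05 in WT CD8 and 13.2 ± 1.8 CPM in WT CD4 cells. It was lower than in WT CD4 by -1.02 ± 0.22 for CD4hi (edgeR adjusted p = 0.00447), -0.95 ± 0.21 for DP (0.00512), -0.86 ± 0.21 for CD4lo (0.0114) and -0.81 ± 0.21 for WT CD8 (0.0117). The CD4lo call was lost without CD4lo 1 or WT CD4 2 and the WT CD8 call without WT CD8 2 or WT CD4 2, with adjusted p up to 0.124 and 0.143 over the alternatives; DESeq2 called the CD4hi difference and none of the other 3. Mbd2, another reader, was higher than in WT CD4 in CD4hi (0.31, edgeR adjusted p = 0.0259), CD4lo (0.31, 0.0284) and WT CD8 (0.36, 0.00944). It averaged 207, 207 and 214 CPM there and 167 in WT CD4 cells. These calls were made in 13, 14 and 15 of the 17 alternatives, and each was lost without WT CD4 2. Of 10 readers tested, 1 was higher and 1 lower than in WT CD4 in CD4hi, 0 and 2 in DP, 1 and 2 in CD4lo, and 1 and 2 in WT CD8. Of all genes, 10.4% were higher and 6.43% lower for CD4hi, 11.1% and 8.06% for DP, 8.82% and 7.02% for CD4lo, and 11.1% and 10.6% for WT CD8, and with 10 genes the counts cannot be read closely against those shares.

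Mat2a, which makes the methyl donor S-adenosylmethionine, averaged 99.7 ± 0.8 CPM in CD4hi, 102 ± 1.77 in DP, 109 ± 12.9 in CD4lo, 115 ± 1.67 in WT CD8 and 145 ± 10.4 CPM in WT CD4 cells. It was lower than in WT CD4 by -0.54 ± 0.09 for CD4hi (edgeR adjusted p = 0.000638), -0.50 ± 0.09 for DP (0.000975), -0.41 ± 0.09 for CD4lo (0.00478) and -0.33 ± 0.09 for WT CD8 (0.0134). The CD4lo call was lost without CD4lo 2 (edgeR adjusted p = 0.0648), and the WT CD8 call with no filter and without WT CD8 1, WT CD8 2 or WT CD4 1 (up to 0.0869 over the alternatives). Shmt2, the mitochondrial enzyme of one-carbon supply, was higher in WT CD8 (60.9 ± 0.0294 CPM) and CD4lo (57.6 ± 1.08 CPM) than in WT CD4 cells (36.1 ± 1.48 CPM), by 0.75 ± 0.13 and 0.67 ± 0.13 (adjusted p = 0.000784 and 0.0027). Its differences in CD4hi (0.56 ± 0.13, adjusted p = 0.0102) and DP (0.65 ± 0.13, adjusted p = 0.00308) were called too. The CD4hi call was lost without CD4hi 2 (0.33) and in the fit of only the 4 libraries compared (0.55, edgeR adjusted p = 0.0586). The DP call was lost without DP 2 (0.46). Of 18 genes of methyl donor and 2-oxoglutarate supply, 1 was higher and 1 lower than in WT CD4 in CD4hi, 1 and 1 in DP, 2 and 1 in CD4lo, and 2 and 3 in WT CD8. Of all genes, 10.4% were higher and 6.43% lower for CD4hi, and 11.1% and 8.06% for DP. For CD4lo they were 8.82% and 7.02%, and for WT CD8 11.1% and 10.6%. With 18 genes the counts cannot be read closely against those shares. The list medians of -0.02 to 0.13 lay near those of all genes.

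Markers of other cells moved with some of these values. The summed level of 10 regulatory T cell markers was 735 to 746 CPM in CD4hi, 394 to 406 in DP, 243 to 252 in CD4lo, 99.7 to 110 in WT CD8 and 562 to 597 in WT CD4 cells, although cells with CD25 were sorted out, and none of the 10 was at 0 in a group. Foxp3, the defining factor of that lineage, stood at 72.3 and 89.1 CPM in CD4hi, 31.7 and 33.3 in DP, 1.47 and 1.17 in CD4lo, 1.36 and 0.941 in WT CD8, and 75.2 and 82.5 in WT CD4 cells. The groups with low Dnmt3a, CD4lo and WT CD8, are those with almost no Foxp3, and the part of regulatory T cells in the Dnmt3a values was not tested. The summed level of 11 B cell markers was 292 to 303 CPM in CD4hi, 426 to 473 in DP, 230 to 264 in CD4lo, 532 to 557 in WT CD8 and 271 to 310 in WT CD4 cells. It was highest in WT CD8 and DP, the groups in which Tet2 was called higher than in WT CD4, and its part was not tested. Although the cells were sorted as TCRb+, gamma delta T cell markers (6 genes) summed to 135 to 136 CPM in CD4lo and to at most 7.18 CPM in any library of the other groups, and NK cell markers (8 genes) to 58.6 to 69.1 CPM in CD4lo and at most 11.7 elsewhere. Their part in the lower Dnmt3a, Tet1 and Tet3 of CD4lo cells was not tested. Macrophage markers (12 genes) summed to 150 to 158 CPM in DP and to at most 46.2 elsewhere, neutrophil markers to at most 3.22 CPM and platelet markers to at most 5.69 CPM. In bulk libraries fewer cells of a type and less RNA per cell cannot be told apart.

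Over the 10 libraries, genes were ranked by how closely their log2 CPM followed each member, among 7487 genes of sufficient level. The points share their groups, so a gene that splits the groups in the same way ranks high, and the coefficients describe these libraries only. Dnmt3a was followed most closely by Inpp5f (Pearson r = 0.97), Nrip1 (0.96) and Foxp3 (0.96), and ran against Eef2k (-0.98) and Ttc37 (-0.97). Tet2 was followed by Iqgap1 (0.97), Eml5 (0.97) and Vps13b (0.96) and ran against Ptpra and Fkbp1a (-0.95 each). For Tet1 the closest were Snrpc (0.94), Ahdc1 and Esco1 (0.92 each), with Arl2bp and Mfap1a lowest (-0.92 each). For Tet3 they were Eftud1 (0.95), Fam168b (0.93) and Tnip2 (0.92), with B4galt1 (-0.90) and Acbd4 (-0.89) lowest. For Dnmt1 they were Trp53i11 and St6galnac4 (0.93 each) and Rpa2 (0.92), a replication protein, with Pacs2 and Hdac5 lowest (-0.91 each). For Dnmt3b, at its low counts, they were SNORA17 (0.87), Gpd2 and Gipc1 (0.86 each), with Gtpbp1 (-0.91) and Hmgcs1 (-0.89) lowest. Among the 6 members the closest pair was Tet1 and Tet3 (0.87), followed by Dnmt3a and Tet3 (0.76), and the most opposed was Dnmt3a and Tet2 (-0.66).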

How the data were processed

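RNA sequencing of sorted naive T cells gave 10 libraries, 2 in each of 5 groups. The values are the authors' deposited counts, whole numbers of reads for each gene symbol and not normalized. TopHat2, HTSeq and build mm10 are named in the submitters' processing notes; versions, annotation and strand setting are not given in the sources used here. Per the labels' protocols, 10 ng of RNA went into directional libraries depleted of ribosomal cDNA. A spreadsheet had turned 25 symbols into dates, none of them described here.

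Columns were matched to samples by title. Genes were kept by filterByExpr (12193 of 34573 genes, 99.7% of counts), scaled by TMM and fitted in 1 edgeR quasi-likelihood model over all libraries (5 residual degrees of freedom), with two-sided tests of 10 group pairs and of any difference among the groups. Benjamini-Hochberg adjustment ran over all genes tested, with a threshold of 0.05. The SE of a log2 fold change is its size over the square root of F. An exact permutation test of 2 libraries against 2 cannot go below p = 0.333 and was not run. Tools were edgeR 4.0.16, DESeq2 1.42.0 and limma 3.58.1 in R 4.3.3. The fit was also run on counts simulated with the same spread in every group, so that run says nothing of unequal spread. Exon lengths are GENCODE M21 union exons. Counts carry no molecular identifiers, so reads are not independent molecules. Within groups, the libraries differed by a chi-square of 3.48 to 15.1 per gene on average, where counting error alone gives about 1. It was 15.1 in WT CD4, 8.14 in CD4lo, 6.93 in CD4hi, 3.60 in WT CD8 and 3.48 in DP cells. All groups share 1 estimate of the spread of a gene, so the wider spread of WT CD4 was not modelled apart. That estimate was moderated towards the trend over all genes, which gives the members 14.2 degrees of freedom for tests and intervals.

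The members and the gene lists were chosen with earlier results of these data known. Named list genes are those called with the largest absolute fold change, at most 4 a list and comparison, of which the text gives some; alike genes are the highest 3 and lowest 2 Pearson correlations among genes whose mean log2 CPM reached 3, leaving out predicted models, receptor segments, ribosomal protein and mitochondrially encoded genes. Alternatives were other scalings, no filter, a replicate block, a fit of the 4 libraries compared, DESeq2 and leaving out each library; for the list genes they were added after seeing the data.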

Additional observations from a re-analysis of the deposited data

How the results depend on the processing

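Of the 9 called differences of the 6 genes, 3 were called in all 17 alternatives (Dnmt3a and Tet2 in WT CD8 against WT CD4, Dnmt3a in CD4lo against WT CD4), and none changed sign. The members called in DP against WT CD8 went to 0 with median-of-ratios size factors, without mitochondrial genes and the most abundant symbol, with no filter, under the replicate block and with DESeq2. In CD4lo against CD4hi they went to 0 with no filter, under the replicate block, in the fit of only the 4 libraries compared and with DESeq2, and in CD4hi against WT CD8 to 0 with no filter and with DESeq2. In DP against WT CD4 they went to 0 with DESeq2, and in CD4lo against WT CD4 to 2 with median-of-ratios size factors, without mitochondrial genes, with no filter and under the replicate block, and to 1 in the fit of 4 libraries and with DESeq2. With 1 library left out they ranged from 0 to 1 in DP against WT CD8, CD4lo against CD4hi, CD4hi against WT CD8 and DP against WT CD4, and from 1 to 3 in CD4lo against WT CD4. The overall test of Tet2 gave an adjusted p of 0.0541 under the replicate block and 0.0746 with DESeq2, and 0.0199 to 0.118 with 1 library left out; that of Tet1 gave 0.0397 to 0.249. The genes of the pathway lists had 121 calls over the 10 comparisons, 78 with DESeq2, 89 to 134 with 1 library left out and 108 under the replicate block. Of these 121, 55 were called in every alternative and none changed sign. The cause of these changes was not tested. Where a library was left out, the number of libraries, the group mean and the shared estimate of spread changed together.

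The replicate numbers were not taken to pair the libraries: over 8164 genes, the correlation of deviations between libraries of the same number ran from -0.36 to 0.18 over 10 group pairs. It was 0.18 for DP with CD4hi and 0.12 for CD4lo with either, and at most 0.10 where a wild-type group took part. Under the replicate block Dnmt3a in CD4lo against CD4hi had an adjusted p of 0.0571. Scaling moved the median of all genes by at most 0.02 on the log2 scale. Dnmt3b, at 30 to 61 counts per library, is the member whose depth limits it most.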
